A study of Mus musculus with 6 samples.

Results

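The genes of cardiac calcium cycling and excitation-contraction coupling were described across 6 heart mRNA-seq libraries. The group holds 34 genes, chosen by symbol from a list of channels, sarcoplasmic reticulum proteins, pumps, calmodulin genes and calmodulin kinases. All 34 were among the 23808 genes of the deposited table. The hearts came from wild-type female mice. One group was kept on normal chow (NC) and the other on a high-fat diet (HFD), from 4 until 12 weeks of age, with 3 libraries in each, numbered 1 to 3. The series title names polycystic ovary syndrome mice, but the labels of these libraries give no treatment other than the diet. They do not say whether a library is 1 animal or a pool, so the spread between libraries may be partly technical. Values are FPKM, read fragments divided by gene length and by the library's fragment total, so that levels can be set side by side between genes. Gene lengths and depth were not given in the sources used here.

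Each heartbeat begins with calcium entering the myocyte through voltage-gated channels at the cell membrane. This trigger opens ryanodine receptors on the sarcoplasmic reticulum, and the larger store released from there activates the sarcomere. For relaxation, the pump SERCA returns calcium to the reticulum under the brake of phospholamban, and the sodium-calcium exchanger moves the rest out of the cell. Calmodulin senses calcium throughout the cycle, and its kinase phosphorylates several of these proteins.

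No gene of the group passed the test for a difference between the diets. A gene was tested where its mean over the 6 libraries was at least 1 FPKM, which held for 33 of the 34. With limma on log2(FPKM + 1) and Benjamini-Hochberg adjustment, 0 of the 33 passed an adjusted p of 0.05 (adjusted p = 0.9998 for each of them). Over all 11456 tested genes the share that passed was 0%. Without adjustment 0 of the 33 had a p under 0.05, against 3.62% of all tested genes. The group had 15 genes higher and 18 lower on HFD, so that 45.5% were higher, against 46.9% of all tested genes. Without HFD 3 only 5 were higher (15.2%, against 33.6% of all tested genes). The group's median log2 fold change with all libraries, HFD minus NC, was −0.02, and that of all tested genes was −0.02.

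The size of a difference that these libraries could hide is given by the limma 95% intervals. They ran from −0.51 to 0.67 (log2) for Atp2a2 and from −0.36 to 0.54 for Itpr2. For Cacna1h, a gene that varied widely within each diet, the interval ran from −1.88 to 0.32. A log2 difference of 1 in either direction therefore lay outside the interval for Atp2a2 and Itpr2, whereas a fall by 1 lay inside it for Cacna1h.

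**Figure D1:**
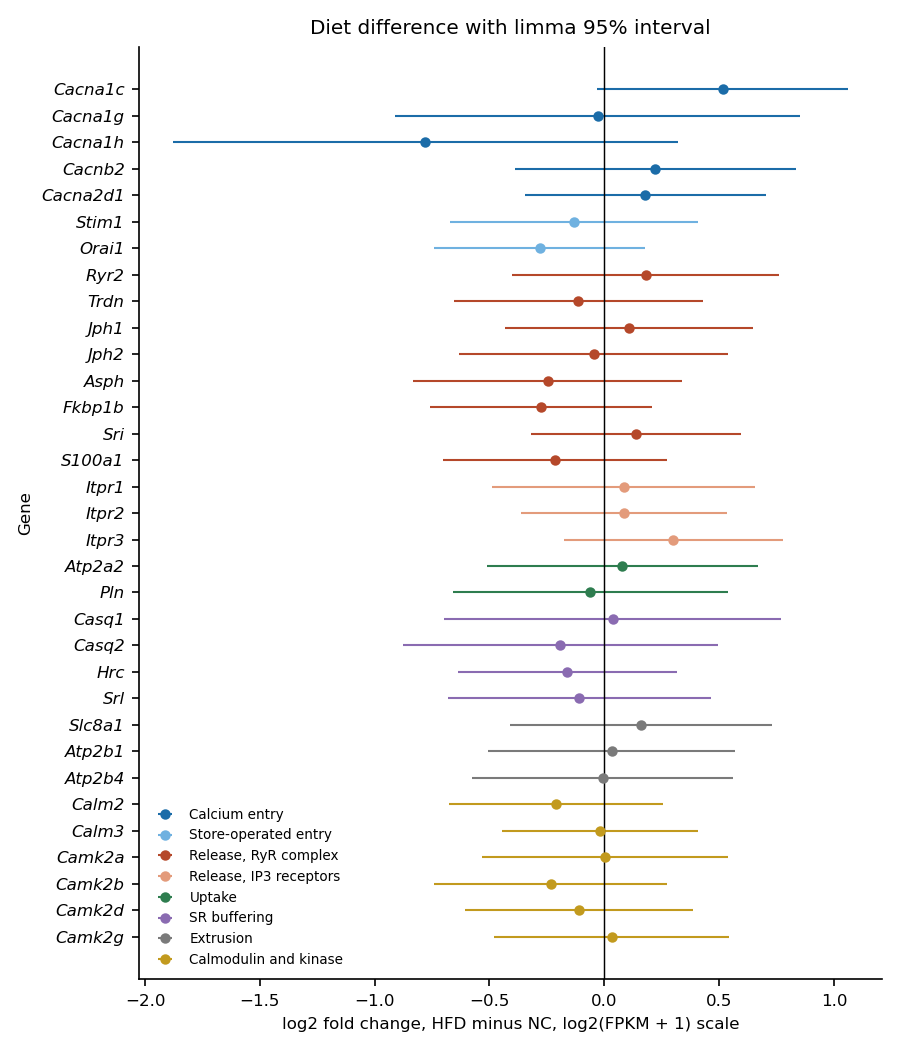
Log2 fold change of each of the 33 tested genes (HFD minus NC, on the log2(FPKM + 1) scale, x axis), with points for the estimate and bars for the limma 95% interval, coloured by role. Every bar crosses 0, that of Cacna1c with its lower end at −0.03.

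Some libraries stood apart. HFD 1 was listed at 0 for the mitochondrial genes mt-Co2, mt-Nd4, mt-Nd4l and mt-Cytb and for the predicted gene Gm28661, all abundant in every other library, and its summed FPKM was 576334 against 687877 to 739406 elsewhere. A list of 11 ventricular and general heart muscle genes had a summed level of 31124 to 45650 FPKM. Among them Myl2 and Tnni3 were high in every library. Several, Tnni3 included, are also expressed in atrial myocytes, so the sum does not measure ventricular tissue alone. The summed level of 14 atrial markers ranged from 436 to 14338 FPKM under NC and from 509 to 7546 FPKM under HFD. It was highest in NC 3 and HFD 3 and lowest in NC 2 and HFD 2, and Bmp10 among these markers was listed at 0 in HFD 1. Fewer cells of a type and less RNA per cell cannot be told apart in whole tissue. Skeletal muscle markers apart from Acta1 did not exceed 6.83 FPKM, the level of Cacna1s in HFD 2. Among 11 such genes 4 reached the level for testing, and Ryr1 and Atp2a1 did not exceed 0.574 FPKM in any library.

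Of the calcium entry genes 3 were higher and 2 lower on HFD, none past the test. Cacna1c, which encodes the pore of the L-type channel that triggers contraction, was the gene of the group with the smallest p. Libraries NC 1, NC 2 and NC 3 gave 22.04, 17.6 and 21.3 FPKM, against 19.98, 34.3 and 36.7 FPKM for HFD 1, HFD 2 and HFD 3. HFD 2 and HFD 3 lay above all NC libraries, but HFD 1 lay among them. The means were 20.3 ± 2.37 and 30.3 ± 9.04 FPKM (SD, n = 3 each). The log2 fold change was 0.52 (SE 0.25), with an unadjusted limma p of 0.0628. Without HFD 1 it was 0.78, and without HFD 3 it was 0.36.

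The auxiliary subunits of that channel, which set its membrane density and gating, were also highest in HFD 3. Cacnb2, the cytoplasmic beta subunit, measured 8.16, 8.64 and 7.56 FPKM under NC, against 5.65, 11.7 and 13.1 FPKM under HFD. HFD held both its lowest and its highest value, and the log2 fold change was 0.22 (SE 0.28). It fell to 0.02 without HFD 3 and was 0.56 without HFD 1. Cacna2d1, the extracellular subunit, measured 12.3, 11.4 and 9.76 FPKM under NC, against 12.7, 9.44 and 16.95 FPKM under HFD, so the ranges overlapped (log2 fold change 0.18, SE 0.24).

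The T-type channels open at more negative voltages and are known from nodal, conducting and atrial cells and from the fetal ventricle. Cacna1h was the gene with the largest log2 fold change of the group, −0.78 (SE 0.50). It measured 2.95, 2.23 and 12.1 FPKM under NC, against 1.21, 1.36 and 5.37 FPKM under HFD. Library 3 was the highest of each diet, the groups overlapped, and the means were 5.77 ± 5.51 and 2.64 ± 2.36 FPKM (SD, n = 3 each). Without NC 3 the log2 fold change was −0.15, and with the atrial marker level in the model it was −0.58. Cacna1g, the other T-type pore gene here, measured 3.19, 5.26 and 9.10 FPKM under NC, against 2.32, 6.16 and 9.47 FPKM under HFD. Its ranges overlapped almost wholly (log2 fold change −0.03, SE 0.41), and library 3 was again the highest of each diet.

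Cacna1d encodes the L-type pore of pacemaker and atrial cells and was the gene of the group below the level for testing. It measured 0.290, 0.116 and 0.576 FPKM under NC, against 0.0858, 0.194 and 0.745 FPKM under HFD. NC 3 and HFD 3, the libraries with the most atrial marker RNA, held its highest values, as they did for Cacna1h. Of 9 nodal and conduction markers 5 reached the level for testing. The mean log2(FPKM + 1) of the 9 was 1.28, 0.852 and 1.21 under NC, against 0.826, 0.938 and 1.30 under HFD. The part of atrial and of conduction tissue in the values of Cacna1d and Cacna1h was not tested. At means of 0.327 ± 0.232 and 0.341 ± 0.353 FPKM (SD, n = 3 each) the diets overlapped. Among the 4 pore genes of the group, Cacna1c made up 49.4% of the summed FPKM in NC 3 and 69.8 to 84.7% in the other libraries. The pore gene Cacna1s, outside the group and at 0.916 to 6.83 FPKM, was not counted in this share. The share, like those within other gene families below, rests on gene lengths that were not given. Annotated exons cover 21191 bases for Cacna1c and 9763 for Cacna1h.

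**Figure D2:**
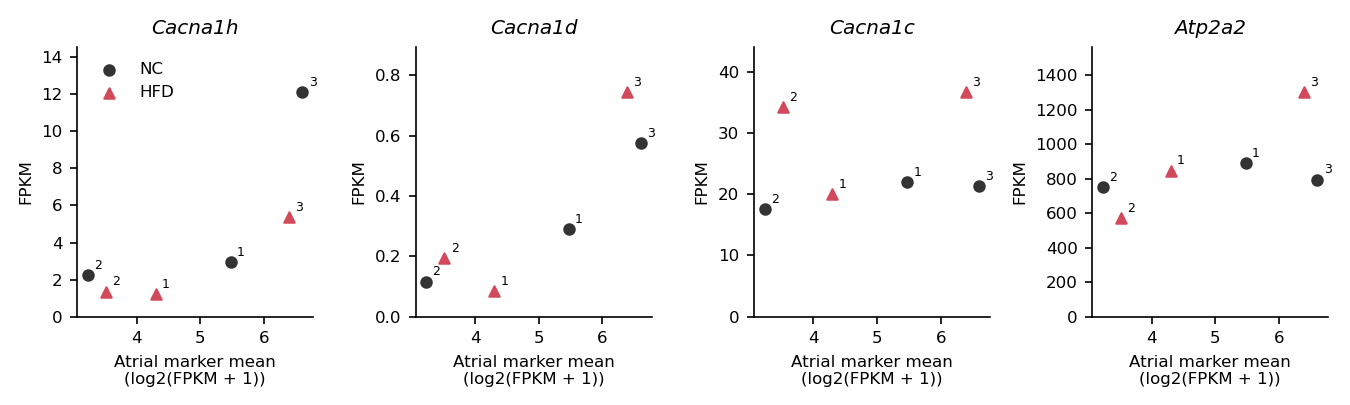
FPKM of Cacna1h, Cacna1d, Cacna1c and Atp2a2 in each library (y axis, from 0) against the mean log2(FPKM + 1) of 14 atrial markers (x axis), with circles for NC, triangles for HFD and the library number beside each point. Cacna1h and Cacna1d are highest in NC 3 and HFD 3, the libraries at the right, while Cacna1c is high in HFD 2 and HFD 3, which lie at opposite ends.

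Store-operated entry refills the reticulum when its store runs low, through the calcium sensor gene Stim1 and the membrane pore gene Orai1. Orai1 measured 10.2, 9.67 and 8.03 FPKM under NC, against 6.85, 7.58 and 7.91 FPKM under HFD, with all HFD values below all NC values. It was the only gene of the 33 with that order, and 4.88% of all tested genes had it. The gap between HFD 3 and NC 3 was small. The means were 9.29 ± 1.12 and 7.44 ± 0.544 FPKM (SD, n = 3 each). The log2 fold change was −0.28 (SE 0.21), with an unadjusted limma p of 0.205. Stim1 measured 7.56, 4.08 and 5.57 FPKM under NC, against 4.61, 5.99 and 4.56 FPKM under HFD, with overlapping ranges (log2 fold change −0.13, SE 0.25).

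Of the ryanodine receptor and its partners 3 were higher and 5 lower on HFD. Ryr2 encodes the ryanodine receptor of the heart, the channel that releases the store. The NC libraries gave 21.4, 19.9 and 19.7 FPKM, and the HFD libraries 19.8, 17.1 and 36.4 FPKM. The NC values were close together, whereas HFD 3 was 2.12 times HFD 2. The means were 20.3 ± 0.918 and 24.4 ± 10.4 FPKM (SD, n = 3 each). The log2 fold change of 0.18 (SE 0.27) rested on HFD 3, without which it was −0.14.

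Proteins that anchor and tune the receptor gave differences of both signs. Triadin, encoded by Trdn, and junctin, made from the Asph locus, tie the receptor to calsequestrin. Trdn measured 15.9, 15.6 and 12.6 FPKM under NC, against 12.6, 10.1 and 19.0 FPKM under HFD, a log2 fold change of −0.11 (SE 0.25) with HFD values on both sides of the NC range. Asph, which also makes an aspartyl hydroxylase, measured 48.4, 49.0 and 32.3 FPKM under NC, against 37.2, 24.8 and 49.0 FPKM under HFD (log2 fold change −0.25, SE 0.27). HFD 2 was the lowest and HFD 3 the highest HFD library for each.

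Junctophilins hold the reticulum close to the membrane tubules. Jph2, the cardiac form, measured 34.9, 33.6 and 41.3 FPKM under NC, against 24.4, 33.4 and 53.6 FPKM under HFD, spreading to both sides of the NC range (log2 fold change −0.05, SE 0.27). Jph1, the form best known from skeletal muscle, lay between 1.22 and 2.75 FPKM and made up 3.54 to 5.93% of the summed FPKM of both forms.

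The small regulators of the receptor differed widely in level. S100a1, a calcium-binding protein that enhances release and uptake, measured 614, 712 and 432 FPKM under NC, against 508, 541 and 439.9 FPKM under HFD. Its ranges overlapped, and the log2 fold change was −0.21 (SE 0.22), with −0.42 without NC 3 and −0.059 without NC 2. Sri, the gene of sorcin, measured 35.8, 29.7 and 25.1 FPKM under NC, against 30.1, 35.1 and 33.9 FPKM under HFD (log2 fold change 0.14, SE 0.21, and 0.016 without NC 3). Fkbp1b, whose product binds and steadies the closed receptor, was barely above the level for testing, with 0.964, 0.997 and 1.71 FPKM under NC and 0.778, 0.644 and 1.05 FPKM under HFD. Its means were 1.22 ± 0.419 and 0.824 ± 0.206 FPKM (SD, n = 3 each). The log2 fold change was −0.28 (SE 0.22), with an unadjusted limma p of 0.241, and it was −0.12 without NC 3. At this level the added 1 FPKM shrinks a change, and with 0.1 added instead the value was −0.50.

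The inositol trisphosphate receptors are a second class of release channel, found in atrial myocytes, vessels and other cells. Their 3 genes had positive log2 fold changes, none past the test. Itpr3 measured 1.39, 1.12 and 1.48 FPKM under NC, against 1.54, 2.43 and 1.70 FPKM under HFD. It was the only gene of the 33 with all HFD values above all NC values, an order that 3.25% of all tested genes had, and HFD 1 exceeded NC 3 only narrowly. The means were 1.33 ± 0.188 and 1.89 ± 0.475 FPKM (SD, n = 3 each). The log2 fold change was 0.30 (SE 0.22), with an unadjusted limma p of 0.195, and it was 0.17 without HFD 2. The summed FPKM of 10 endothelial markers was 916 to 1360 under NC, and the HFD libraries gave 1675, 2011 and 1099. Fabp4 alone was at 1368 FPKM in HFD 2. The mean log2(FPKM + 1) of the 10 was 5.46 to 5.86 under NC and 5.76 to 5.89 under HFD, and their part in the value of Itpr3 was not tested. Itpr1 ranged from 3.35 to 7.34 FPKM under NC and from 4.80 to 6.19 FPKM under HFD (log2 fold change 0.08, SE 0.26), and Itpr2 from 1.51 to 1.86 and from 1.78 to 1.99 FPKM (log2 fold change 0.09, SE 0.21). Itpr1 took 54.9 to 69.4% of the summed FPKM of the 3 genes in every library.

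For uptake into the reticulum, Atp2a2 encodes SERCA, and Pln encodes phospholamban, a short membrane peptide that slows the pump until it is phosphorylated. Pln and Atp2a2 had the highest mean levels of the 34 genes. The coding sequences of Pln and of Sln, the gene of the related atrial inhibitor sarcolipin, are shown in full from GENCODE transcripts because they are short enough to see at a glance. In Pln the capitals mark codons 16 and 17, the serine that protein kinase A phosphorylates and the threonine that calmodulin kinase phosphorylates.
Pln: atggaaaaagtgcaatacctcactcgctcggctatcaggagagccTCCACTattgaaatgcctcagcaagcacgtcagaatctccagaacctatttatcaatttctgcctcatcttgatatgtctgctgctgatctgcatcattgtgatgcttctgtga
Sln: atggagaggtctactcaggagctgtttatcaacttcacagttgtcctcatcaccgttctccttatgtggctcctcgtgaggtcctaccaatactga

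The Pln coding sequence has 159 bases and that of Sln 96. By GENCODE annotation of mm10, Pln spans 53337667 to 53345987 of chromosome 10 (plus strand). Atp2a2 spans 122453513 to 122502225 of chromosome 5 (minus strand). Of the exon bases of Pln, 59.6% overlap the gene Gm47644 on the opposite strand. The level of Pln is uncertain to that extent, because use of strand in counting was not given in the sources used here.

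Atp2a2 measured 892, 754 and 795 FPKM under NC, against 847, 571 and 1304 FPKM under HFD. The HFD libraries held both the lowest and the highest value, with NC between them. Means were 814 ± 70.9 and 907 ± 370.2 FPKM (SD, n = 3 each), and the log2 fold change was 0.08 (SE 0.27). Without HFD 3 it was −0.22, and without HFD 2 it was 0.37. Pln measured 1097, 1096 and 736 FPKM under NC, against 1014, 612 and 1253 FPKM under HFD. HFD 2 was again lowest and HFD 3 highest. Means were 976 ± 208 and 959.9 ± 324 FPKM (SD, n = 3 each), with a log2 fold change of −0.06 (SE 0.28). Sln, which is not one of the 34, gave 174, 4.65 and 429.6 FPKM under NC and 69.3, 19.9 and 328 FPKM under HFD. The libraries had the same order for Sln as for the summed atrial markers, of which it is one.

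Of the 4 calcium-binding proteins of the reticulum 1 was higher and 3 were lower on HFD. Casq2 encodes calsequestrin of the heart, which stores calcium beside the release channel. It measured 161, 179 and 113 FPKM under NC, against 157, 74.6 and 186 FPKM under HFD. HFD 2 was the lowest library and HFD 3 the highest, with HFD 1 inside the NC range. Means were 151 ± 33.7 and 139 ± 57.8 FPKM (SD, n = 3 each). At −0.19 (SE 0.31), the log2 fold change turned to 0.20 without HFD 2. Hrc, the histidine-rich calcium-binding protein, measured 193, 198 and 150.3 FPKM under NC, against 147, 138 and 202 FPKM under HFD (log2 fold change −0.16, SE 0.22, and −0.33 without HFD 3). Srl, which encodes sarcalumenin, was tightly grouped under NC, with 82.2, 75.3 and 75.4 FPKM, and spread out under HFD, with 69.0, 49.6 and 108 FPKM (log2 fold change −0.11, SE 0.26). Casq1, the calsequestrin of fast skeletal muscle, measured 7.12, 4.37 and 4.02 FPKM under NC, against 3.58, 3.71 and 9.95 FPKM under HFD, and made up 2.24 to 5.08% of the summed FPKM of both calsequestrins.

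Of the 3 extrusion genes 2 were higher and 1 was lower on HFD. Slc8a1 encodes the sodium-calcium exchanger. It measured 2.06, 1.26 and 1.78 FPKM under NC, against 1.72, 1.33 and 3.22 FPKM under HFD, which placed it at rank 29 of the 34 by mean level. That rank rests on the gene length behind the FPKM, which was not given, and the annotated exons of Slc8a1 cover 18807 bases. HFD 3 alone lay above the NC range. Means were 1.70 ± 0.402 and 2.09 ± 0.995 FPKM (SD, n = 3 each). At 0.16 (SE 0.26), the log2 fold change turned to −0.09 without HFD 3. The membrane calcium pump genes Atp2b1 and Atp2b4 were at similar levels, with means of 3.56 and 3.52 FPKM under NC and of 3.70 and 3.58 FPKM under HFD. Their log2 fold changes were 0.03 (SE 0.25) and −0.01 (SE 0.26).

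Of the calmodulin and kinase genes 2 were higher and 4 lower on HFD. Calm2 and Calm3 encode the same protein from different nucleotide sequences. The first 120 coding bases are shown, with the bases that differ between the genes in capitals. Within the coding sequence, reads can be assigned to either gene only by such bases. The untranslated parts of the transcripts were not compared.
Calm2: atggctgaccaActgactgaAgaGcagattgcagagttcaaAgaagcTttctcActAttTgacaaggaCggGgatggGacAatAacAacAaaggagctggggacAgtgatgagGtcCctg
Calm3: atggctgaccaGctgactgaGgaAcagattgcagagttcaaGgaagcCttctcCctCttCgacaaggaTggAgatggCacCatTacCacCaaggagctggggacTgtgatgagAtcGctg

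Over all 450 coding bases the 2 genes were 82.7% identical, with 74 of the 78 differences at the third base of a codon and no identical run longer than 17 bases. Calm2 measured 101, 84.6 and 91.5 FPKM under NC, against 84.1, 62.9 and 95.3 FPKM under HFD (log2 fold change −0.21, SE 0.21, and −0.042 without HFD 2). Calm3 measured 47.8, 43.8 and 43.0 FPKM under NC, against 41.6, 41.2 and 50.6 FPKM under HFD (log2 fold change −0.02, SE 0.20). The ranges of the diets overlapped for each gene. Calm2 made up 67.3 ± 1.22% of their summed FPKM on NC and 64.2 ± 3.37% on HFD (SD, n = 3 each, exact permutation p = 0.2, two-sided).

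The kinase is assembled from products of 4 genes, of which Camk2d is known as the main cardiac form. Camk2d measured 18.8, 20.2 and 15.1 FPKM under NC, against 14.8, 14.3 and 21.3 FPKM under HFD. HFD 3 was the highest library and HFD 2 the lowest. Means were 18.0 ± 2.61 and 16.8 ± 3.92 FPKM (SD, n = 3 each), with a log2 fold change of −0.11 (SE 0.23), which was −0.28 without HFD 3 and −0.012 without HFD 2. It made up 51.4 ± 8.57% of the summed FPKM of the 4 genes on NC and 49.8 ± 4.57% on HFD (SD, n = 3 each). Camk2g followed at 22.8 and 24.6%, Camk2a at 19.2 and 20.2% and Camk2b at 6.67 and 5.43%, in the same order on each diet. These shares rest on gene lengths that were not given, and annotated exons cover 22493 bases for Camk2d and 6401 for Camk2g. The largest log2 fold change of the other 3 was that of Camk2b, −0.23 (SE 0.23, and −0.086 without NC 3), with 1.84, 2.14 and 3.06 FPKM under NC and 1.57, 1.61 and 2.31 FPKM under HFD. Those of Camk2a and Camk2g were 0.00 and 0.03.

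**Figure D3:**
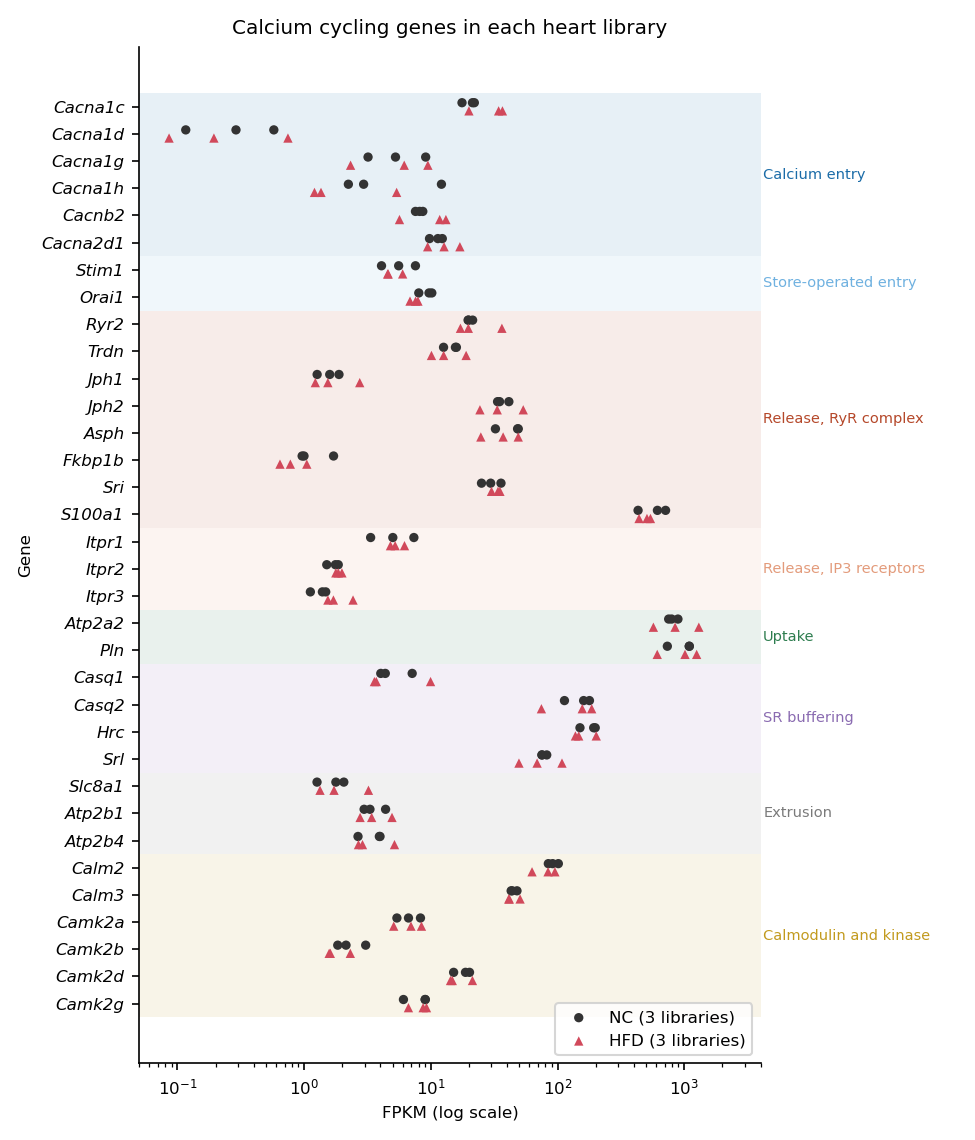
FPKM of the 34 genes (log scale, x axis) in the 3 NC libraries (circles) and the 3 HFD libraries (triangles), with genes grouped by role. Levels span from below 0.1 FPKM for Cacna1d to 1304 FPKM for Atp2a2, and the diets overlap in every gene but Orai1 and Itpr3.

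By level, Pln and Atp2a2 exceeded all other genes of the group in each of the 6 libraries, followed by S100a1 at 432 to 712 FPKM. Hrc, Casq2, Calm2 and Srl came next, with means between 76.6 and 171 FPKM over all libraries. Hrc lay above Casq2 in every library but HFD 1, and Calm2 above Srl in every library but HFD 3. These differences between genes were not tested. The release and entry channels Ryr2 and Cacna1c had means of 22.4 and 25.3 FPKM over the 6 libraries, and their order differed between libraries.

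Other genes of calcium handling were taken from a list of 106 genes, of which 100 were in the table and 68 were tested. None passed over all genes. Of the 68, 32 were higher and 36 lower on HFD, with a median log2 fold change of −0.02. Without HFD 3 or without NC 2 the number higher was 17 or 21. With all libraries, 4 of the 68 had an unadjusted limma p under 0.05, all lower on HFD, against 3.62% of all tested genes in either direction. Over all tested genes such p values also leaned lower, with 264 genes lower and 151 higher on HFD. The 4 genes were Pcp4, Cav3, Rrad and S100a6. In these 4 and in the kinase gene Camk1 (log2 fold change −0.16, SE 0.19), 5 of the 68, all HFD values lay below all NC values, and in 0 of the 68 above, against 4.88% and 3.25% of all tested genes. Camk1 was named after its values were seen. Rrad, a small GTPase that restrains the L-type channel, measured 95.9, 88.4 and 83.8 FPKM under NC, against 57.4, 75.2 and 57.2 FPKM under HFD (log2 fold change −0.50, SE 0.20). Of the 8 tested genes in its class of entry channel subunits and regulators, 7 were lower, with a median of −0.27. That left 12.5% higher, against 46.9% of all tested genes. Other classes of the list went the other way, with 5 of 6 store-operated genes and 6 of 8 uptake genes higher. The median GC content of the entry channel class was 58.1%, against 50% over all tested genes. The part of GC content in these values was not tested.

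Cav3, the muscle caveolin of membrane tubules, measured 47.0, 42.2 and 47.0 FPKM under NC, against 28.7, 35.1 and 31.4 FPKM under HFD. Its log2 fold change of −0.51 (SE 0.20) lay between −0.58 and −0.44 whichever library was left out. All 11 genes of the ventricular and general heart muscle list also had negative log2 fold changes (median −0.19, 0 past the test). Their part in the values of Rrad and Cav3 was not tested. Pcp4, a small protein that modulates calmodulin, measured 6.51, 6.99 and 4.47 FPKM under NC, against 4.15, 0.530 and 3.43 FPKM under HFD. The difference was −1.08 on the log2 scale (SE 0.39), and −0.53 without HFD 2. S100a6, a calcium-binding protein, measured 131, 121 and 117 FPKM under NC, against 90.1, 107 and 73.7 FPKM under HFD (log2 fold change −0.46, SE 0.21). Fibroblast and macrophage markers were lower in 9 of 10 genes each (medians −0.45 and −0.33), and their part in the value of S100a6 was not tested. The limma adjusted p of all 4 was 0.9998.

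The 4 genes of that list that were higher on HFD by the smallest p had overlapping ranges. Saraf, which limits store-operated entry, gave a value of 0.28 (SE 0.21) on the log2 scale, the reticulum pump gene Atp2a3 0.33 (SE 0.27), the store sensor gene Stim2 0.32 (SE 0.28) and the phosphatase gene Mtm1 0.28 (SE 0.23). Single libraries set much of these values. Stim2 was at 0.0032 without HFD 2, Atp2a3 at 0.12 without NC 2, and Saraf and Mtm1 at 0.16 each without NC 3. Of 11 genes of mitochondrial calcium uptake 5 were higher and 6 lower (median −0.06).

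Ratios of genes within a library do not depend on the scaling between libraries. Library effects that differ with a gene's GC content, given below, need not cancel in them. The 8 ratios compared here were not corrected for GC content. None separated the diets, and none passed an exact permutation test, whose smallest possible p with 3 against 3 libraries is 0.1. The ratio of Pln to Atp2a2, often read as the brake on the pump, was 1.23, 1.45 and 0.925 under NC and 1.197, 1.07 and 0.961 under HFD. These values overlapped (difference in mean log2 ratio −0.14, exact two-sided p = 0.6, adjusted p = 0.686). The ratio of Ryr2 to Atp2a2 was 0.0240, 0.0264 and 0.0247 on NC and 0.0233, 0.0300 and 0.0279 on HFD. It stayed within a narrow range although Atp2a2 itself varied 2.28-fold (difference 0.11, exact p = 0.5, adjusted p = 0.686).

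Casq2 to Ryr2 had the largest difference in mean log2 ratio, −0.38 (exact p = 0.3, adjusted p = 0.686), with ratios of 7.52, 8.98 and 5.76 on NC and 7.93, 4.36 and 5.12 on HFD. HFD 2 and HFD 3 lay below the NC range and HFD 1 inside it. Calm2 to Calm3 had the smallest exact p, 0.2 (adjusted p = 0.686), and a difference of −0.19. Those of Slc8a1 to Atp2a2, Jph2 to Ryr2, Casq1 to Casq2 and Camk2d to Camk2g were 0.15, −0.23, 0.22 and −0.15 (exact p from 0.4 to 0.7).

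**Figure D4:**
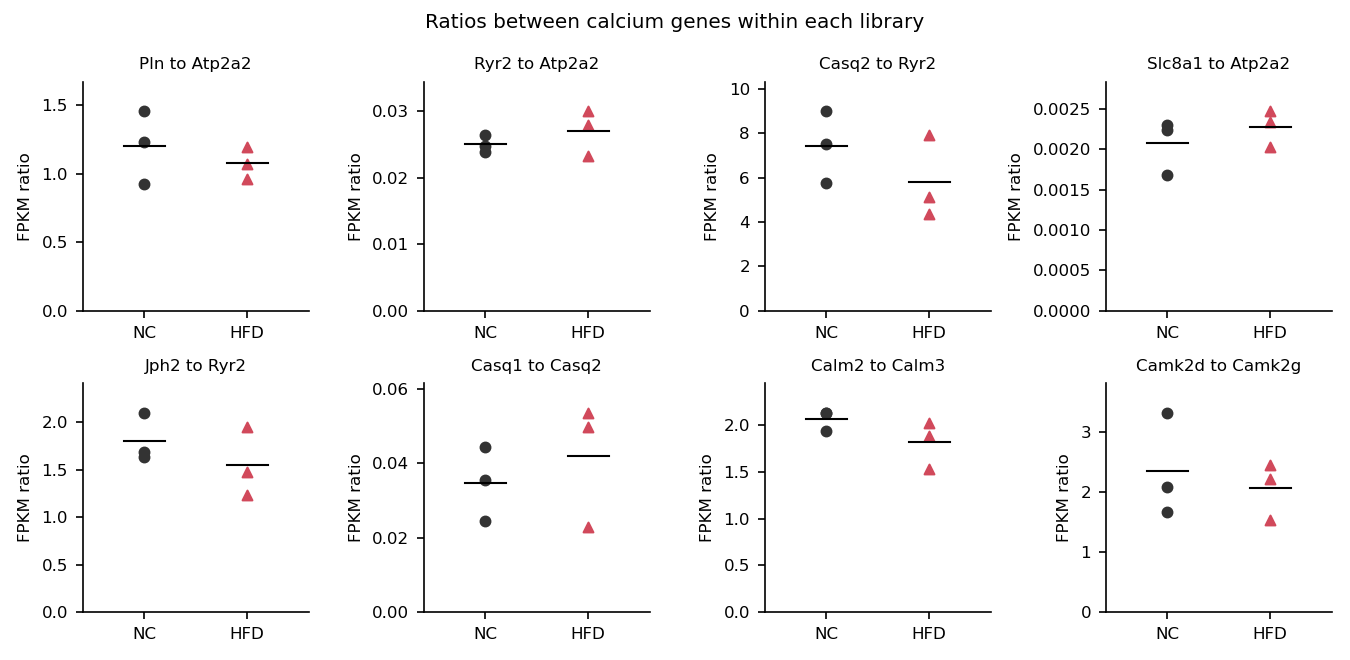
Ratio of FPKM between 2 genes in each library (y axes from 0), with circles for NC, triangles for HFD and a line at the mean of each diet. In all 8 panels the points of the diets overlap.

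By the median, these genes varied more between HFD libraries than between NC libraries, which also held over all tested genes. The coefficient of variation over 3 libraries had a median of 29.8% on HFD and 19.5% on NC over the 33 genes. Over all tested genes the median was 24.9% on HFD and 19.1% on NC. The coefficient was larger on HFD in 23 of the 33 genes (69.7%, against 62.9% of all tested genes). In 12 of the 33 genes (36.4%) HFD 2 was the lowest of the 6 libraries and HFD 3 the highest, an order that was noticed in these data and that 12.0% of all tested genes had. These were Cacna2d1, Ryr2, Trdn, Jph1, Atp2a2, Pln, Casq2, Hrc, Srl, Atp2b1, Calm3 and Camk2d. They include all genes of uptake and 3 of the 4 buffering genes, but neither store-operated gene and no inositol trisphosphate receptor. The order was not particular to the group. Of the 68 other tested genes of calcium handling 15 had it (22.1%). Among these 68 it was found in 4 of 11 genes of mitochondrial calcium uptake (36.4%), but in 0 of 8 entry channel genes and 0 of 6 store-operated genes. HFD 3 exceeded HFD 2 by 2.49-fold for Casq2, 2.28-fold for Atp2a2, 2.19-fold for Srl and 2.05-fold for Pln. Over all tested genes the median ratio of HFD 3 to HFD 2 was 1.17, and over the 33 genes it was 1.54.

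Other measures also separated these libraries. The summed FPKM of 6 red blood cell genes was 13372 in HFD 2 and 1241 in HFD 3, the highest and lowest of the 6 libraries, and that of the atrial markers was 509 and 7546. Across 11441 tested genes, a gene's deviation from its mean correlated with the GC content of its longest transcript, with a Spearman coefficient of 0.31 in HFD 2, −0.21 in HFD 3, −0.47 in HFD 1 and 0.41 in NC 3. Genes are not independent replicates, and no p is given. The median GC content was 46.9% for the 12 genes and 51.8% for the other 21. After a correction for GC content, chosen after seeing the data, 7 of the 33 genes (21.2%) had this order, against 6.38% of all genes. The median log2 difference between HFD 3 and HFD 2 was then 0.35 over the 33 genes and 0.00 over all. The part of blood and atrial content in this pattern was not tested.

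**Figure D5:**
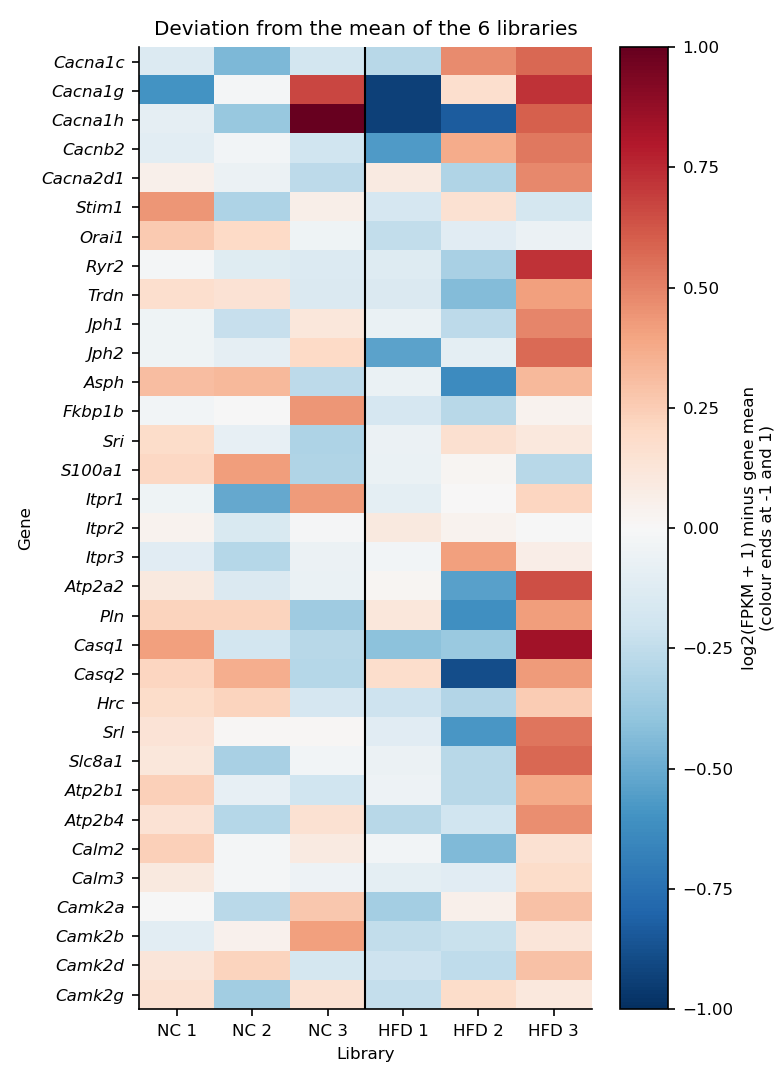
Deviation of log2(FPKM + 1) from the gene's mean over the 6 libraries (colour, ending at −1 and 1), with the 33 tested genes in rows by role and libraries in columns. HFD 3 is high and HFD 2 low in Ryr2, Atp2a2, Pln, Casq2 and Srl, while the NC columns stay nearer to the mean in these genes.

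Promoters of 3 of the 12 genes that shared this order are shown so that their sequences can be compared. RefSeq (GRCm38.p6) gave a window for 23 of the 34 genes. Each run holds the 250 bases before the gene's start on its own strand, from chr10:53337436-53337685 for Pln, chr3:102086165-102086414 for Casq2 and chr13:12106946-12107195 (minus strand) for Ryr2. Capitals mark matches on either strand to the TATA box motif TATAAA, to the motif of GATA factors, AGATAA, to the M-CAT element, CATTCC, and to the CArG box and the MEF2 motif. A MEF2 match can overlap a TATA box. The starts are those of RefSeq, and for Pln the window ends inside the gene as GENCODE places it, whose start is at 53337667.
Pln: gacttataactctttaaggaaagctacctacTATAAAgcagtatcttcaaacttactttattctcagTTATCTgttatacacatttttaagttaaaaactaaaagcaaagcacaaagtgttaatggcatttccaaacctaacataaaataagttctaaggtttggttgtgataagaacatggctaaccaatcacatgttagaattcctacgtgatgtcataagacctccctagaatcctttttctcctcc
Casq2: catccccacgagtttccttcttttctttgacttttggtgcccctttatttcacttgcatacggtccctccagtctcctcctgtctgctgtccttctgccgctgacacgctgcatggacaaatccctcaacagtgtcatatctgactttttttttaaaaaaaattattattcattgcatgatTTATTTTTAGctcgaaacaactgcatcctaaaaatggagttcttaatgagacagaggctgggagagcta
Ryr2: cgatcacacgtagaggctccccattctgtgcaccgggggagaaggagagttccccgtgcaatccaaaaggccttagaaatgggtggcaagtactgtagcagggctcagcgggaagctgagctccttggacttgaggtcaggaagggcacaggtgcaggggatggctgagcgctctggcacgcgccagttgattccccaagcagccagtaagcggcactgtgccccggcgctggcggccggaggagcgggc

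The 3 promoters differed in composition, with a GC content of 32.8% for Pln, 41.6% for Casq2 and 63.2% for Ryr2. Pln had a TATAAA match 219 bases and a GATA match 183 bases before the start. Casq2 had a MEF2 match 69 bases before the start, and Ryr2 had none of the 5 motifs in this window. None of these 5 motifs was found in all 3. The E-box, a common motif given below, was found in all 3, with 1 in Pln and 2 each in Casq2 and Ryr2. Over the 23 genes, TATAAA was found in 2, AGATAA in 3, CATTCC in 2, the MEF2 motif in 1 and the CArG box in 0. The shares over all 32851 promoter windows of that length were 12.4%, 9.99%, 12.6%, 2.92% and 1.47%. The E-box CANNTG and the GC box GGGCGG, not in capitals here, were found in 15 of the 23 genes each, against 66.2% and 32.7% of all windows. The 23 genes had 29 windows, and a gene was counted where any of its windows held the motif, so the counts of genes and the shares of windows are not on the same footing.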

How the data were processed

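Heart poly(A) mRNA of 3 NC and 3 HFD libraries was compared. The deposited values are FPKM, made by the authors. The submitters' processing notes list the mm10 build and, with no role or order, HISAT2 2.2.1, DESeq2 1.18.1, Trimmomatic 0.38, R 3.4.1, FastQC 0.11.9 and HTSeq 0.13.5. Depth, gene lengths and strand use were not given in the sources used here, and no counting interval is given. Gene symbols were matched by identifier for 23718 of 23808 genes.

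Values were taken as log2(FPKM + 1), which understates changes of low genes. The diets were compared over genes averaging at least 1 FPKM by limma 3.58.1 under R 4.3.3 (mean-variance trend, no covariates, two-sided, Benjamini-Hochberg over all 11456 tested genes, threshold 0.05). On simulated data with as many genes and 200 of them changed, the test called 26.5% at a log2 change of 1 (3 false calls). At a log2 change of 2 it called 90.5% (10 false calls). The changed genes were drawn from those with a mean log2(FPKM + 1) above 2, so lower genes such as Itpr3 and Fkbp1b are not covered. Noise was independent between genes, so shifts shared by many genes of a library were not simulated. Ratios within a library were tested by exact permutation, adjusted over the 8 ratios. Members, lists and tests were chosen with earlier results of these data known. Full statistics were given for 7 fixed core genes and for the 3 genes in each direction with the smallest p, and likewise for 4 genes in each direction of the wider list. Marker lists of other cell types were fixed with the design. Those given are for ventricle and general heart muscle, atrium, nodal and conduction tissue, skeletal muscle, endothelium, fibroblasts, macrophages and red blood cells. Of the wider list, 6 symbols were not matched. One marker gene of the red blood cell list is not reported here and was left out of its sum. Coordinates and coding sequences come from GENCODE annotation of mm10, promoters from RefSeq. Protein sequences were not used here. Figures were drawn with matplotlib 3.10.9.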

Additional observations from a re-analysis of the deposited data

How the results depend on the processing

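In every setting 0 genes of the group passed the threshold of limma, and 0 to 3 had an unadjusted p under 0.05. With all libraries kept, 27 of the 33 had log2 fold changes of 1 sign in every setting. Over every setting, those that leave out a library included, 13 did. The numbers 1 to 3 were not taken to pair the libraries, since deviations correlated by 0.19, 0.086 and 0.27 between same-numbered libraries and NC 2 correlated best with HFD 1. With the replicate block 73 genes passed over all genes, Pcp4 among them (limma adjusted p = 0.0148) and 0 of the group. With the block after GC correction 0 passed, the smallest adjusted p being 0.0503, and that of Pcp4 was 0.616. With the atrial marker mean as covariate 1 gene passed, and leaving out a library gave 0 to 1. Without the filter on low values 49 of 100 other pathway genes were higher, a share close to the 32 of 68 with it. Leaving out a library gave 17 to 36 of them, with 17 without HFD 3 and 21 without NC 2, and 5 to 20 of the 33 genes of the group. The lowest, 5 (15.2%, against 33.6% of all genes), was without HFD 3. Signs reversed for values near 0. Median-of-ratios scaling gave 0.00044 for Atp2b4. Quantile normalization gave 0.038 for Jph2, 0.12 for Pln and 0.049 for Calm3. The atrial covariate gave 0.0502 for Cacna1g, 0.017 for Jph2 and 0.063 for Atp2b4. GC correction, added after seeing the data, gave 0.056 for Cacna1g, 0.079 for Jph2, −0.0040 for Atp2b1 and 0.067 for Calm3, with or without the replicate block. The cause was not tested.

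Leaving out 1 library at a time reversed these log2 fold changes, given as the lowest and highest value. The lowest came without HFD 3 for Cacna1g −0.40 to 0.43, Cacna2d1 −0.016 to 0.38, Ryr2 −0.14 to 0.39, Trdn −0.35 to 0.077, Jph1 −0.11 to 0.26, Jph2 −0.34 to 0.21, Asph −0.47 to 0.0064, Atp2a2 −0.22 to 0.37, Pln −0.28 to 0.23, Casq1 −0.38 to 0.25, Casq2 −0.45 to 0.20, Srl −0.40 to 0.16, Slc8a1 −0.088 to 0.34, Atp2b1 −0.15 to 0.18 and Atp2b4 −0.24 to 0.13. The same held for Calm3 (−0.11 to 0.033) and Camk2a (−0.14 to 0.17). In the others it came without NC 2, with Stim1 at −0.32 to 0.059, Itpr1 at −0.15 to 0.32, Camk2g at −0.14 to 0.16 and Sln at −1.81 to 1.32. The log2 ratio of Pln to Atp2a2 ranged from −0.32 to 0.0084, that of Casq1 to Casq2 from −0.012 to 0.61 and that of Camk2d to Camk2g from −0.37 to 0.12. Without a change of sign, leaving out a library also moved Itpr2 from 0.031 to 0.13, Sri from 0.016 to 0.26, S100a1 from −0.42 to −0.059, Hrc from −0.33 to −0.056, Calm2 from −0.34 to −0.042, Camk2b from −0.35 to −0.086 and Camk2d from −0.28 to −0.012. With 3 libraries a diet and unknown depth, log2 changes of 1 or less were often not detectable.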
